A study of Mus musculus with 6 samples.

Results

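Matrix metalloproteinases are secreted or membrane-bound zinc proteases that cut collagens and other proteins of the extracellular matrix, and the tissue inhibitors of metalloproteinases, encoded by the Timp genes, block them by occupying their active site. Most are made as inactive proenzymes. In skeletal muscle these proteases take part in matrix turnover during regeneration and in the migration of myoblasts, the dividing precursor cells of muscle fibres. The genes described here are Mmp2, Mmp3, Mmp9, Mmp13, Mmp14, Mmp15, Timp1, Timp2, Timp3 and Timp4, chosen by symbol. A gene counted as measured when the array annotation gave it at least 1 probe set with exactly 1 symbol, which held for 9 of the 10 genes, with 22 probe sets, out of 18194 genes on the array. No probe set carried the symbol Mmp15, a membrane-type metalloproteinase, so it was not analysed here.

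The myoblasts came from hindlimb muscle of C57BL/6JRj male mice aged 9 to 15 weeks and were grown for 72 hours on fibronectin (3 samples) or on collagen I (3 samples). Both groups had the same Ham's F-10 medium with 20% fetal bovine serum, 2.5 ng/ml basic fibroblast growth factor and 1% penicillin and streptomycin, and both were lifted with trypsin before RNA extraction, so the control cells shared these agents. Fibronectin and collagen I are matrix proteins that cells hold through different integrins, and the comparison asked how the coating changed expression. Nothing in the labels says that samples were separate cultures or mice, so the p-values reflect only how much these samples varied, and that variation may be technical.

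The values were log2 signals of an Affymetrix array, and the number of samples limited their precision. Sample medians over 45101 probe sets lay between 2.298 and 2.337 on fibronectin and between 2.35 and 2.39 on collagen. Genes were tested with limma if the mean of their brightest probe set reached 2.33, the median over all probe sets, and a group mean under that value is called near the floor. Of 10942 genes tested 40.1% passed a Benjamini-Hochberg adjusted p of 0.05, 19.9% of them being higher and 20.2% lower on fibronectin as shares of all genes tested. With each sample centred on its median, 2971 genes were higher and 1646 lower, against 2173 higher and 2211 lower with the values as deposited. Changes of at least 1.5-fold past the threshold were found in 5.23% of genes, 1.55% higher and 3.67% lower. The median log2 change over all genes tested was 0.00. All 8 myoblast markers examined, among them Myod1, Myf5 and Pax7, lay above the filter on both coatings, which fitted the labelled cell type.

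On fibronectin the collagenase gene Mmp13 and the inhibitor gene Timp2 were lower than on collagen, Mmp14 was slightly lower, and the other inhibitor gene that could be tested, Timp1, was slightly higher. Mmp2, Mmp3, Mmp9, Timp3 and Timp4 were near the floor on both coatings. Thus 4 of the 9 measured genes were bright enough to test, of which 3 fell and 1 rose at an adjusted p of 0.05, against the 40.1% of all tested genes that passed in either direction. Mmp13 passed the brightness filter only through its collagen samples, so it could be tested only because the groups differ. In bulk RNA, less RNA per cell and fewer cells expressing a gene cannot be told apart.

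**Figure D1:**
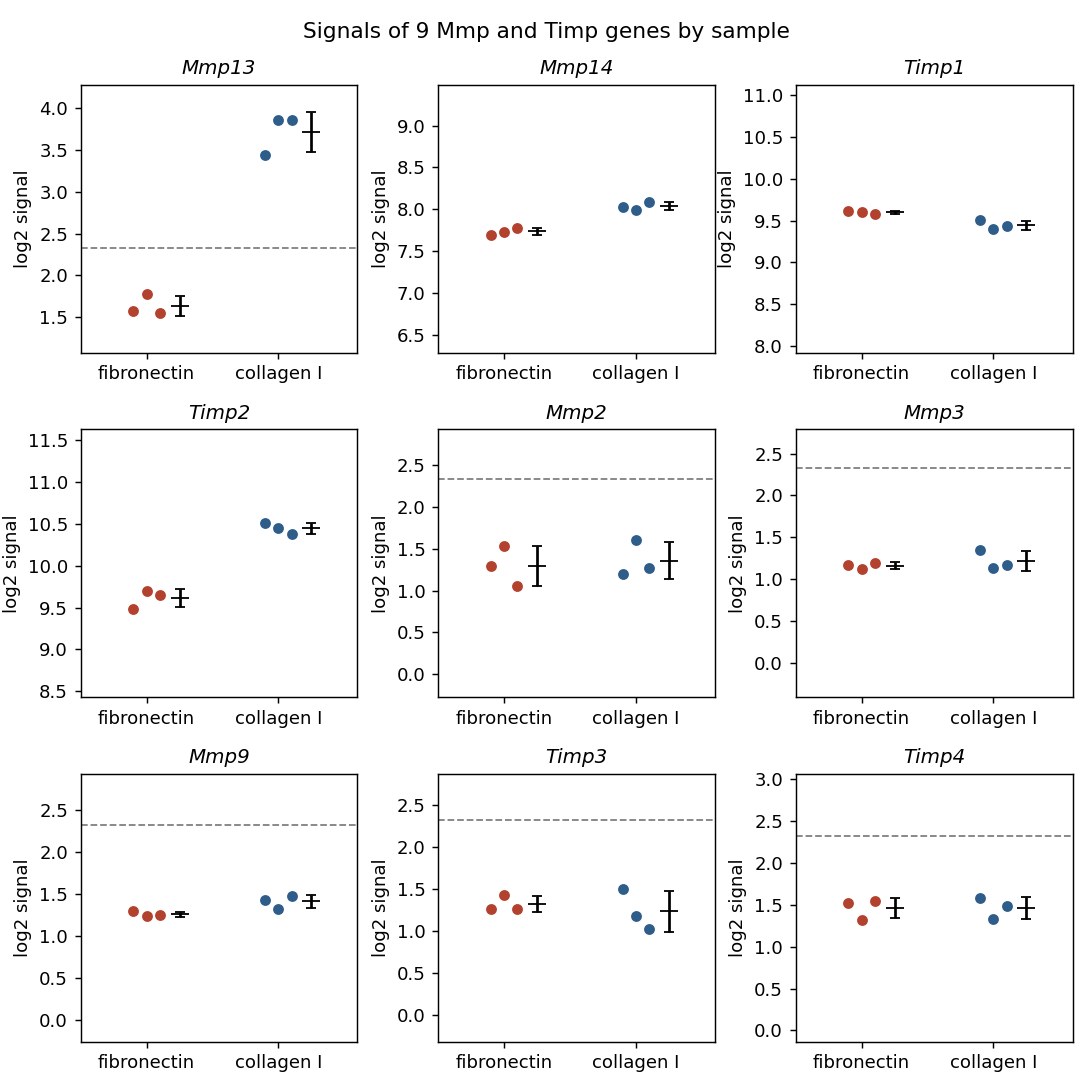
Log2 signal of the 9 measured genes in each sample, with fibronectin at the left and collagen I at the right of each panel. Points are samples, the black mark and bar are the mean and SD (n = 3), every panel spans the same range of log2 units, and the dashed line is the brightness filter of 2.33. Mmp9, Mmp13, Mmp14 and Timp2 are lower, and Timp1 is higher, in every fibronectin sample than in every collagen sample. Of all genes tested 53.3% likewise did not overlap. Mmp9 is 1 of 5 genes that lie below the filter on both coatings, and the share without overlap among such genes was not counted.

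Mmp13 (Entrez gene 17386, chromosome 9) encodes collagenase 3, which cuts fibrillar collagens, including collagen I. Its single probe set read 1.58, 1.78 and 1.55 in fibronectin samples 1 to 3, against 3.44, 3.86 and 3.86 in collagen samples 1 to 3. The groups were far apart, and all 3 fibronectin samples lay near the floor while all 3 collagen samples lay above the filter. Collagen samples 2 and 3 held the same value to 6 decimals, and such ties between samples occurred in 19% of all probe sets of the deposited table. Mmp13 averaged 1.64 ± 0.12 on fibronectin and 3.72 ± 0.24 on collagen (SD, n = 3 each), a log2 change of -2.08 (SE 0.12, 95% interval -2.36 to -1.81, limma adjusted p = 2.46e-05). This is a 4.24-fold difference between deposited signals, and since the lower value sits near the floor the size of the fall rests on values where the array resolves little.

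Mmp3, which encodes the protease stromelysin 1, lies in the same cluster of Mmp genes on chromosome 9. Its probe set read 1.17, 1.12 and 1.19 on fibronectin and 1.35, 1.13 and 1.17 on collagen, near the floor in all samples, and the coatings overlapped. The upstream sequences of both genes are shown because they lie in 1 cluster and hold some of the same motifs. They are the 250 bases before the RefSeq start site on GRCm38.p6, read 5′ to 3′ on the gene's strand, at chr9:7272264-7272513 for Mmp13 and chr9:7445572-7445821 for Mmp3, both on the plus strand. Capitals mark the motifs searched, which were TGANTCA (bound by AP-1, the Fos and Jun factors) on both strands, TATAAA (a core promoter box) on the gene's strand, GGGCGG (Sp1 box) on both strands and ACCACA (Runx factors) on both strands.
Mmp13: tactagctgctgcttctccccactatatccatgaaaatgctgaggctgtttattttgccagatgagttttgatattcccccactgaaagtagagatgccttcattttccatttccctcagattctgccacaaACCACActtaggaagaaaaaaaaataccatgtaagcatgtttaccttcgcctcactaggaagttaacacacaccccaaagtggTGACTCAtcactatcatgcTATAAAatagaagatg
Mmp3: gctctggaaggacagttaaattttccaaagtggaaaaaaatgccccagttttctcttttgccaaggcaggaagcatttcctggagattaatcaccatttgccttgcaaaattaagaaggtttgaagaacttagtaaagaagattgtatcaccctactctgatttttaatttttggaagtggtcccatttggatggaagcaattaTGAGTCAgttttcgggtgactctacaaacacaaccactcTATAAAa
The Mmp13 sequence held TGACTCA at bases -35 to -29 from the start site, TATAAA at -16 to -11 and ACCACA at -118 to -113. The Mmp3 sequence held TGAGTCA at -46 to -40 and TATAAA at -7 to -2. TGANTCA occurred in 6.75% and TATAAA in 7.59% of 32851 mouse promoter sequences of the same length, ACCACA in 14% and GGGCGG in 32.7%. These matches describe letters and were not measured as binding sites.

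Mmp14 (Entrez gene 17387, chromosome 14) encodes membrane type 1 metalloproteinase, a collagenase anchored at the cell surface that activates the proenzyme of Mmp2 in a complex with Timp2. It read 7.69, 7.73 and 7.78 in fibronectin samples 1 to 3, against 8.02, 7.997 and 8.09 in collagen samples 1 to 3. Every fibronectin sample was lower than every collagen sample, as was the case for 53.3% of all genes tested in one direction or the other. Mmp14 averaged 7.74 ± 0.04 on fibronectin and 8.04 ± 0.05 on collagen (SD, n = 3 each). It fell by 0.30 on the log2 scale, a 1.23-fold change (SE 0.05, 95% interval -0.41 to -0.19, limma adjusted p = 0.00202). The dimmer pair of its 3 probe sets differed by -0.21 and -0.26 without overlap between coatings, and in a limma fit over all 45101 probe sets, of which 10.2% passed, they had adjusted p of 0.0801 and 0.0656 while the brightest had 0.0229.

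The gelatinase genes Mmp2 and Mmp9, whose enzymes cut denatured collagen and collagen IV, were near the floor. Mmp2 read 1.29, 1.53 and 1.06 on fibronectin and 1.20, 1.61 and 1.27 on collagen, with overlapping coatings. Mmp9 read 1.29, 1.23 and 1.25 on fibronectin, all a little below the 1.43, 1.33 and 1.48 on collagen. These are the brightest probe sets of both genes. The dimmer probe sets overlapped between coatings, with log2 changes of 0.17 for Mmp2 and -0.13 for Mmp9. Neither gene was tested with the brightness filter. With no filter the log2 changes of the brightest probe sets of Mmp2 and Mmp9 were -0.06 and -0.15, with limma adjusted p of 0.826 and 0.128. Signals this low do not show whether the transcripts were absent or below what these probe sets resolve.

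Among the inhibitors, Timp2 (Entrez gene 21858, chromosome 11) had the larger difference. Its product blocks most metalloproteinases and also helps Mmp14 to activate the proenzyme of Mmp2. Its brightest probe set read 9.49, 9.69 and 9.65 in fibronectin samples 1 to 3, against 10.51, 10.45 and 10.38 in collagen samples 1 to 3. The fibronectin samples were all lower, and the gap was several times the spread within a coating. Timp2 averaged 9.61 ± 0.11 on fibronectin and 10.45 ± 0.06 on collagen (SD, n = 3 each). It fell by 0.83 on the log2 scale, or 1.78-fold (SE 0.07, 95% interval -0.99 to -0.68, limma adjusted p = 9.4e-05). Of its 6 probe sets 5 lay above the filter, and these 5 fell by 1.52-fold to 1.95-fold with adjusted p over all probe sets between 0.000558 and 0.00231. The last one, near the floor on both coatings, had means of 1.20 on fibronectin and 1.53 on collagen with overlap between coatings (adjusted p = 0.285).

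Timp1 (Entrez gene 21857, chromosome X) encodes an inhibitor of most secreted metalloproteinases that binds membrane-type ones weakly. Its probe set read 9.62, 9.60 and 9.58 in fibronectin samples 1 to 3, against 9.51, 9.40 and 9.43 in collagen samples 1 to 3. The fibronectin samples were all higher, by a small margin. Timp1 averaged 9.60 ± 0.02 on fibronectin and 9.45 ± 0.05 on collagen (SD, n = 3 each), a 1.11-fold rise and a log2 change of 0.15 (SE 0.05, 95% interval 0.04 to 0.26, limma adjusted p = 0.0328). The call was lost with no brightness filter (0.0955), over all probe sets (0.175) and with the replicate number as a block (0.0525). It was also lost without any 1 fibronectin sample (0.0941, 0.0853 and 0.0692 without samples 1, 2 and 3) and without collagen sample 2 (0.105) or 3 (0.0799).

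**Figure D2:**
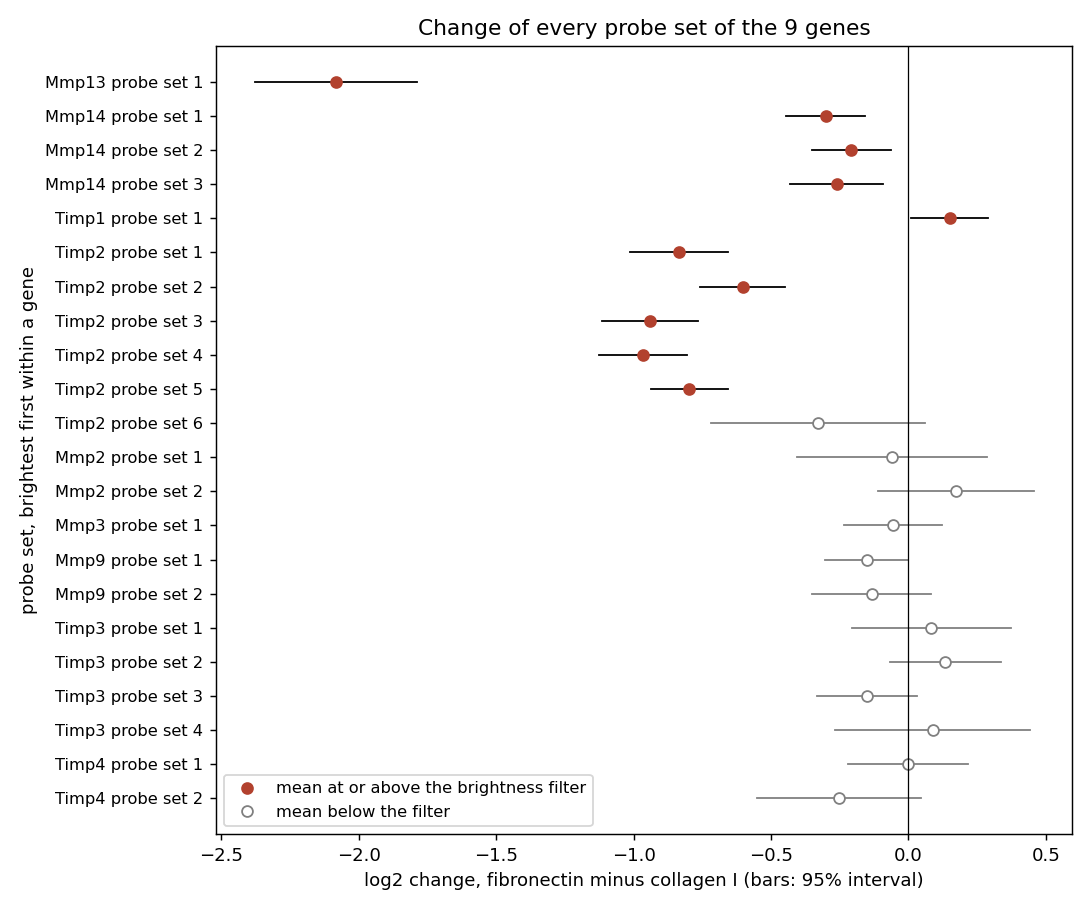
Log2 change, fibronectin minus collagen I, of all 22 probe sets of the 9 genes, with 95% intervals from the limma fit over all probe sets. Filled points are probe sets with a mean of at least 2.33 and open points are those below it. The 3 probe sets of Mmp14 and the 5 bright ones of Timp2 all lie below 0, and the change of Mmp13 lies at -2.08.

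The sequences upstream of Mmp14, Timp1 and Timp2 are shown because these are the other 3 genes that were tested. They lie at chr14:54431348-54431597 (plus strand), chrX:20869916-20870165 (plus strand) and chr11:118355412-118355661 (minus strand) of GRCm38.p6, with the same motifs in capitals.
Mmp14: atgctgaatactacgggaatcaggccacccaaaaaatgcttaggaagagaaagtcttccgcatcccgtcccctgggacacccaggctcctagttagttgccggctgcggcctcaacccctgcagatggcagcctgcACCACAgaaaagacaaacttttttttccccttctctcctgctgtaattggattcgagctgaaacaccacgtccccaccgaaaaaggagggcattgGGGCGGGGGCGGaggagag
Timp1: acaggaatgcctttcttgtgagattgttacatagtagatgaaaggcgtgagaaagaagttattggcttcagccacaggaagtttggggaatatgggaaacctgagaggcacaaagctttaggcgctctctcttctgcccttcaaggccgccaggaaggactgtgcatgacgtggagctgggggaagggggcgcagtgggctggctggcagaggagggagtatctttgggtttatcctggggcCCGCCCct
Timp2: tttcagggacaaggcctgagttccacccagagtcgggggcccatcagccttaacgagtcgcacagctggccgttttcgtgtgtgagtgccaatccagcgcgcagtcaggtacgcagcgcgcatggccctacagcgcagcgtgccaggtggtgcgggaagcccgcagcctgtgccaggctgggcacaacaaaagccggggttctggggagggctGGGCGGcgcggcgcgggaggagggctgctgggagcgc
None of these 3 sequences held TGANTCA or TATAAA in the window, and each held GGGCGG or its reverse complement CCGCCC. Mmp14 held it at bases -19 to -14 and, directly after, at -13 to -8. Timp1 held it at -8 to -3 and Timp2 at -37 to -32. Mmp14 also held ACCACA at -114 to -109. These letters did not separate bright from dim genes: Timp3, near the floor, held CCGCCC at -15 to -10 and neither TGANTCA nor TATAAA, and Timp4, also near the floor, held none of the motifs. The CpG dinucleotide occurred 21 times in the Timp2 window, 18 times in that of Timp3 and 14 times in that of Mmp15. It occurred 10 times in the window of Mmp14, 6 times in that of Timp1 and 2 times in that of Timp4. The windows of Mmp13 and Mmp3 held it 1 time each, and the median over all promoter sequences was 6.

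Timp3, whose product binds to the matrix and also blocks Adam and Adamts proteases, and Timp4, an inhibitor known from heart muscle, were near the floor with every probe set. The brightest probe set of Timp3 read 1.26, 1.43 and 1.26 on fibronectin and 1.502, 1.17 and 1.03 on collagen. That of Timp4 read 1.52, 1.33 and 1.54 on fibronectin and 1.59, 1.33 and 1.49 on collagen. The coatings overlapped for both genes. With no filter the log2 changes of Timp3 and Timp4 were 0.08 and 0.00, with limma adjusted p of 0.699 and 0.991.

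Across the 6 samples, the tested genes whose signals followed Mmp13 most closely were Rragd, a GTPase of the lysosomal nutrient-sensing pathway (Pearson r = 0.999), and Atp6v0b, a subunit of the vacuolar proton pump (r = 0.999). Those closest to Timp2 were Tcn2, a vitamin B12 carrier (r = 0.9998), and Selenop, a secreted selenoprotein (r = 0.999). These values mostly restate the difference between coatings that the 6 points share, since 1525 genes had r above 0.9 with Mmp13 and 1714 had it with Timp2.

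The other Mmp genes were mostly dim. Of 17 listed, 13 were measured and 4 were bright enough to test, of which 0 rose and 2 fell, against 19.9% and 20.2% of all genes. Mmp11, a stromelysin made by stromal cells, averaged 5.01 ± 0.04 on fibronectin and 5.25 ± 0.10 on collagen (log2 change -0.25, SE 0.06, limma adjusted p = 0.0127). Mmp16, a membrane-type metalloproteinase, averaged 4.57 ± 0.03 on fibronectin and 4.72 ± 0.01 on collagen (log2 change -0.15, SE 0.04, adjusted p = 0.0234). The call of Mmp16 was lost when all its probe sets were averaged (log2 change -0.09, adjusted p = 0.172) and with samples centred (-0.10, adjusted p = 0.129). It was also lost without fibronectin sample 1 (0.0664) or 3 (0.0818) or collagen sample 2 (0.0703), each of which left 1 gene of the list lower. Mmp16 did not pass with no filter (0.0768), with an intensity trend (0.073) or over every probe set (0.154). Mmp11 also lost its call over every probe set (0.0727). At an adjusted p of 0.01 neither gene passed. Mmp10 and Mmp19, named after their values were seen, were near the floor on both coatings yet lower in all 3 fibronectin samples. Mmp10 averaged 1.21 ± 0.29 on fibronectin and 1.86 ± 0.20 on collagen (SD, n = 3 each). Mmp19 averaged 0.92 ± 0.11 on fibronectin and 1.57 ± 0.27 on collagen (SD, n = 3 each). In all the remaining untested genes of this list the coatings overlapped. Of the genes above the filter 53.3% did not overlap, and the share below the filter was not counted.

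Adam and Adamts genes encode related metalloproteases, several of them blocked by Timp3. Of 27 listed 15 were tested, 3 rose and 2 fell, against 40.1% of all genes in either direction, and their median log2 change was 0.02. Adamts4, a protease of aggrecan and versican, fell by 0.54 on the log2 scale (limma adjusted p = 0.000302), and Adam8, a cell surface protease, fell by 0.33 (0.00083). Adam12, which is linked to myoblast fusion, averaged 3.80 ± 0.07 on fibronectin and 3.27 ± 0.10 on collagen, a log2 change of 0.53 (SE 0.06, adjusted p = 0.000575). Adam19 and Adamts7 had log2 changes of 0.22 and 0.16 (adjusted p = 0.00675 and 0.0156). Adam19 lost its call over every probe set (0.0584). Adamts7 lost its call without fibronectin sample 2 (0.0594) or collagen sample 2 (0.0535). It also lost it with no filter (0.0567), over every probe set (0.121) and at an adjusted p of 0.01.

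Among 16 tested genes whose products activate, bind or clear metalloproteinases and their inhibitors, 5 rose and 4 fell, against 19.9% higher and 20.2% lower over all genes, and the median of their log2 changes was -0.02. The cell surface receptor Plaur, which holds the plasminogen activator urokinase, averaged 7.50 ± 0.04 on fibronectin and 8.02 ± 0.05 on collagen (log2 change -0.52, adjusted p = 0.000166). The thrombospondin genes Thbs1 and Thbs2 went opposite ways. Thbs1 averaged 5.28 ± 0.22 on fibronectin and 3.90 ± 0.30 on collagen (log2 change 1.38, adjusted p = 0.000455). Thbs2, whose product helps clear Mmp2, averaged 4.36 ± 0.03 on fibronectin and 4.80 ± 0.11 on collagen (log2 change -0.43, adjusted p = 0.00118). Sparc, a collagen-binding glycoprotein, and Plat, a plasminogen activator, had log2 changes of 0.48 and 0.40 (adjusted p = 0.000184 and 0.00541), and 0.29 and 0.14 with probe sets averaged. Without fibronectin sample 1 or 2 or collagen sample 3 the number higher was 3.

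Ligands known to act on Mmp and Timp genes were lower on fibronectin in 7 of 11 tested cases and higher in 1, against 20.2% lower and 19.9% higher over all genes, with a median log2 change of -0.36. This list, like the others, was chosen with earlier results of these data known, so the contrast is only a description. Tgfb1, a growth factor that controls matrix genes, averaged 5.04 ± 0.25 on fibronectin and 6.74 ± 0.07 on collagen (log2 change -1.69, SE 0.11, limma adjusted p = 5.17e-05), and its log2 change was -0.93 with its probe sets averaged. Its relatives Tgfb2 and Tgfb3 fell by 0.36 and 0.46 on the log2 scale (adjusted p = 0.00333 and 0.00143), that of Tgfb2 being -0.17 with averaged probe sets. The cytokine Il11 fell by 0.81 (0.00084) and the growth factor Hgf fell by 0.44 (0.00199). Hbegf, a ligand of the Egf receptor, was the member that rose, at 6.47 ± 0.13 on fibronectin and 6.08 ± 0.15 on collagen (adjusted p = 0.011).

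Of 22 tested transcription factors that bind Mmp promoters 3 rose and 5 fell, against 40.1% of all genes in either direction, and the median of their log2 changes was -0.08. Jund, a Jun protein of AP-1, averaged 6.35 ± 0.02 on fibronectin and 6.67 ± 0.05 on collagen (log2 change -0.32, adjusted p = 0.00113). Fos, its partner in AP-1, averaged 4.75 ± 0.09 on fibronectin and 4.51 ± 0.11 on collagen (log2 change 0.24, adjusted p = 0.0284). The other tested Jun and Fos genes did not pass. These were Jun and Fosl1, both brighter than Jund and Fos (limma adjusted p = 0.897 and 0.151), and Junb and Fosl2 (0.203 and 0.452). Runx1 did not pass either (0.291). Foxo1, Stat3 and Ets2 fell by 0.49, 0.29 and 0.38 on the log2 scale (adjusted p = 0.00159, 0.00439 and 0.00543), and Ets2 lost its call when its probe sets were averaged (log2 change -0.10, adjusted p = 0.354), a setting that gave Foxo1 -0.27. Snai2 and Sp1 had log2 changes of 0.23 and 0.15 (adjusted p = 0.0145 and 0.0386). The 3 rises depended on single samples. Fos lost its call without fibronectin sample 2 (0.0911) or 3 (0.0771) or collagen sample 1 (0.0781) or 3 (0.0791). Snai2 lost it without fibronectin sample 2 (0.0529) or collagen sample 2 (0.0522), and Sp1 without fibronectin sample 1 (0.0707), 2 (0.102) or 3 (0.107) or collagen sample 1 (0.0802) or 2 (0.0992). The number higher was 0 without fibronectin sample 2 and 1 without fibronectin sample 3 or collagen sample 1 or 2.

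Genes for matrix proteins that these proteases cut rose in 8 and fell in 3 of 16 tested cases, against 19.9% higher and 20.2% lower over all genes, and the median of their log2 changes was 0.18. Col5a1, a chain of collagen V, averaged 7.24 ± 0.06 on fibronectin and 5.89 ± 0.05 on collagen (log2 change 1.35, adjusted p = 8.87e-06). The matrix glycoprotein Tnc, the proteoglycan Vcan and the basement membrane collagen chain Col4a2 had log2 changes of 0.86, 0.98 and 0.66 (adjusted p = 1.68e-05, 5.37e-05 and 5.4e-05). The genes that fell were Bgn, a small proteoglycan, by 0.85, Dag1, the laminin receptor dystroglycan, by 0.25, and Fn1, which encodes fibronectin itself, by 0.25 (adjusted p = 0.000127, 0.00484 and 0.011). The call of Fn1 was lost when its probe sets were averaged (log2 change -0.23, adjusted p = 0.0861).

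**Figure D3:**
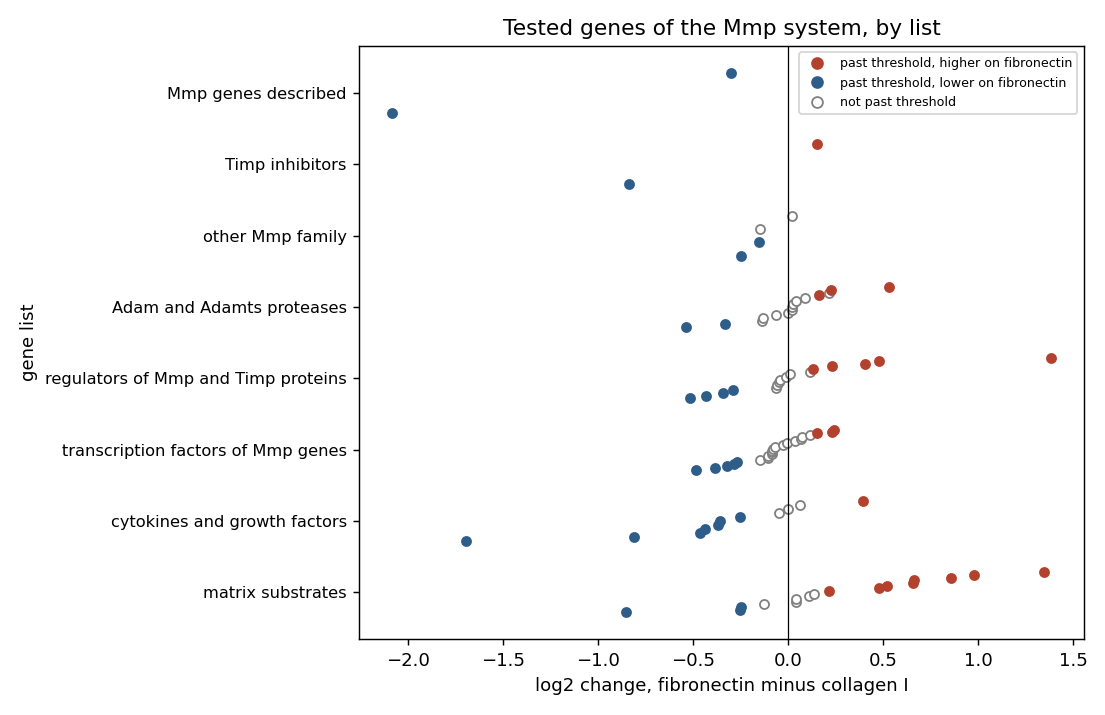
Log2 change, fibronectin minus collagen I, of each tested gene in the lists above, 1 row of points per list. Red points passed an adjusted p of 0.05 as higher on fibronectin, blue points passed as lower and open points did not pass. The value of Mmp13, at -2.08, includes fibronectin signals near the floor. Of 11 ligand genes 7 are blue, against 20.2% of all genes tested. The lists were chosen with earlier results of these data known.

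Cells other than myoblasts also make these proteases and inhibitors, so the markers of such cells are given beside the falls of Mmp13 and Timp2. Of 6 macrophage markers 3 were tested, of which 2, Cd68 and Cd14, were lower on fibronectin (log2 changes -1.28 and -0.46, limma adjusted p = 0.000358 and 0.000768), and the summed linear signal of the 6 ranged over 37.1 to 43.1 in fibronectin samples and 54.4 to 62.6 in collagen samples. The third tested one, Csf1r, averaged 3.19 ± 0.21 on fibronectin and 3.22 ± 0.06 on collagen (SD, n = 3 each) and did not pass (adjusted p = 0.822). Ptprc, Adgre1 and Lyz2 were near the floor, with no group mean above 1.86, and the coatings overlapped for each. The difference in the summed macrophage signal thus lay mostly in Cd68 and Cd14. Of 4 pericyte and smooth muscle markers 3 were tested, and Rgs5 was lower on fibronectin (log2 change -1.24, adjusted p = 0.000468) while Acta2 was higher (0.21, adjusted p = 0.027), a call lost without fibronectin sample 1 (0.0592) or collagen sample 1 (0.0579), 2 (0.0669) or 3 (0.0666) and with averaged probe sets (log2 change 0.09, adjusted p = 0.334). Their summed linear signal ranged over 1281 to 1353 on fibronectin and 1438 to 1491 on collagen, and Myh11, the defining smooth muscle gene, was near the floor. Cspg4, the other tested marker of this list, averaged 2.94 ± 0.25 on fibronectin and 3.29 ± 0.21 on collagen. It did not pass (log2 change -0.35, limma adjusted p = 0.0793). Of 7 measured fibroblast markers 3 were tested, of which Cd34 and Col3a1 were higher (log2 changes 0.58 and 0.21) and Thy1 was lower (-0.32). Cd34 was near the floor on collagen and passed the filter only through its fibronectin samples. The summed signal of the 7 was 737 to 792 on fibronectin and 625 to 687 on collagen, most of it from Col3a1, and that of the other 6 was 19.7 to 24.7 on fibronectin and 19.6 to 20.5 on collagen, with Pdgfra, Lum, Dcn and Col1a1 near the floor. All 5 endothelial, 4 neutrophil and 2 adipocyte markers measured were below the filter, and Sox10, the 1 Schwann cell marker measured, averaged 3.19 on fibronectin and 3.15 on collagen (adjusted p = 0.559). All 8 myoblast markers were tested, of which 2 rose and 2 fell, against 19.9% higher and 20.2% lower over all genes. Vcam1 and Cdh15 were higher on fibronectin (log2 changes 0.31 and 0.24), and Chrna1 and Des were lower (-0.31 and -0.23). The summed linear signal of the 8 was 4509 to 4701 on fibronectin and 4912 to 5115 on collagen, with Chrna1 the brightest of them. The part of other cells in the changes of Mmp13 and Timp2 was not tested.

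**Figure D4:**
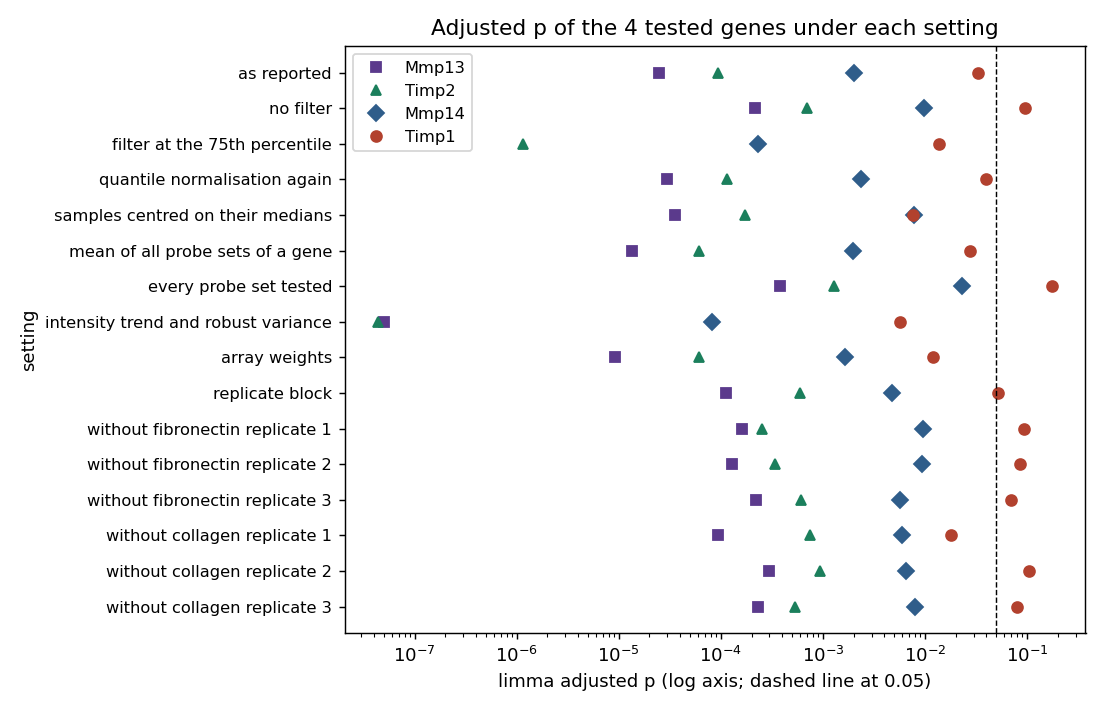
Adjusted p of the 4 tested genes with the values as reported and under 15 other settings, on a log axis with a dashed line at 0.05. Mmp13, Timp2 and Mmp14 stay left of the line wherever they were tested, and Timp1 crosses it in 8 settings.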

How the data were processed

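RNA of 6 samples was hybridised to an Affymetrix mouse array. The authors deposited log2 probe set signals, made with Affymetrix Expression Console and RMA per the submitters' processing notes. The sources used here give no software version or scan day, and no batch was tested. Sample medians were not identical and low signals were lower than RMA usually gives, so the exact algorithm is not settled and its effect on a shift common to most genes is not known here.

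Samples were grouped by title. The platform annotation, updated through RefSeq for GRCm38.p6, gave 1 gene to 34958 of 45101 probe sets, several to 932 and none to 9211. Each gene took its brightest probe set, and 10942 of 18194 genes reached a mean of 2.33 and were tested with limma 3.58.1 in R 4.3.3 (lmFit and eBayes, fibronectin minus collagen, no covariates, two-sided). The fit was tested on simulated data. With 3 against 3 samples an exact permutation test cannot reach p under 0.1, so none was run. Promoters came from RefSeq, with 8 of the 10 genes matched. Figures used matplotlib 3.10.9.

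The genes, lists and tests were chosen with earlier results of these data known. Named genes were all members and, per list, up to 5 past the threshold by smallest p, plus all in a direction with 3 or fewer. For members past the threshold with at least 1.5-fold change, the 2 genes of highest Pearson r were named. Alternatives were other filters, scalings, probe set rules, variance models, a stricter threshold, a replicate block and leaving out each sample.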

Additional observations from a re-analysis of the deposited data

How the results depend on the processing

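The falls of Mmp13, Timp2 and Mmp14 passed the threshold in every alternative in which they were tested (15 settings for Mmp13, 16 for the others), with log2 changes of -2.22 to -2.01, -0.88 to -0.74 and -0.32 to -0.25, and Mmp13 was not tested with the filter at the 75th percentile. The count of Mmp and Timp genes lower on fibronectin was 3 in the reported fit. The count higher, 1 for Timp1, became 0 with no filter, over every probe set, at an adjusted p of 0.01 and with the replicate block, and lay between 0 and 1 when each sample was left out. Timp1 lost its call in 9 of 16 settings. Over all 16 settings its log2 change was 0.13 to 0.20 and its adjusted p lay between 0.00568 and 0.175. Over all genes 4384 passed, against 2567 at an adjusted p of 0.01, 4173 with the replicate block and 3441 to 4137 when each sample was left out. The replicate numbers gave no clear sign of pairing. Deviations of same-numbered samples had correlations of 0.101, -0.00927 and 0.0779, and 3 of 6 samples correlated best with their own number. With 3 samples per coating this check cannot exclude pairing. Array signals near the floor limit what can be said of Mmp2, Mmp3, Mmp9, Timp3 and Timp4, whose changes took either sign for 4 of these 5 genes across settings, and Mmp9 stayed lower at -0.19 to -0.10. Counts in the other lists also depended on the setting. The genes lower among other Mmp genes numbered 2, against 1 with the 75th percentile filter, samples centred, probe sets averaged or an intensity trend. Their number was 0 at an adjusted p of 0.01 and 3 with no filter or without fibronectin sample 2. Mmp16 was not among the 3 with no filter (limma adjusted p = 0.0768), so these held at least 1 gene not tested in the reported fit. Adam and Adamts genes had 3 higher and 2 lower, against 1 each with the 75th percentile filter and 1 higher over every probe set. Regulators had 5 higher, against 3 with no filter, over every probe set or at 0.01 and 2 with the 75th percentile filter, and 4 lower, against 2 with that filter or at 0.01. Transcription factors had 3 higher, against 1 with no filter and 0 over every probe set or at 0.01. Ligands had 1 higher, against 2 with probe sets averaged and 0 over every probe set or at 0.01, and 7 lower, against 2 with the 75th percentile filter. With the 75th percentile filter, genes with a mean below 5.18 were not tested and so left the counts. With no filter or over every probe set, more tests entered the adjustment. Why the counts changed otherwise was not tested.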
